A study of Mus musculus with 12 samples.

Results

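The genes described here, 10 in number, belong to the DNA methylation machinery and were chosen by symbol: the writers Dnmt1, Dnmt3a and Dnmt3b with their cofactor Dnmt3l, the readers Uhrf1, Uhrf2 and Zfp57, and the demethylation and repair genes Tet2, Mbd4 and Tdg. Of these, 9 were listed in at least 1 library, with 18 RefSeq promoter rows, among 12098 genes and 13614 promoter rows over the series. The values are mean CpG methylation levels of the genes' own promoters, in percent, and say nothing of how much of each protein the cells made. They come from reduced representation bisulfite sequencing, which reads fragments between MspI cutting sites after a treatment that turns unmethylated cytosine into thymine. The material was colon epithelium of C57BL/6 mice. The 3 induced mice, in which Dnmt3b was switched on, drank water with doxycycline (0.5 g/l for 3 months, renewed every 3 days), and the 3 control mice drank regular water; all ate chow. The labels give neither the promoter that drove the induced Dnmt3b nor whether control mice carried the construct, and doxycycline and Dnmt3b induction cannot be told apart. From each mouse, fragments of 40 to 120 nt (short fraction) and of 120 to 220 nt (long fraction) were sequenced separately, which makes 12 libraries.

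Dnmt3a and Dnmt3b place methyl groups on unmethylated CpGs, and Dnmt1, which Uhrf1 brings to hemimethylated sites, copies the pattern to the new strand after replication. Tet enzymes oxidise methylcytosine, Tdg excises oxidised bases, and Mbd4 removes the thymine left when methylcytosine deaminates. Zfp57 binds methylated imprinted regions and keeps them methylated in the early embryo.

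The promoter sequences differ widely in CpG content and in MspI sites, on which the assay depends. RefSeq windows from 250 bases before to 50 bases after a transcription start (build GRCm38.p6, 300 bases each) were available for all 10 genes, 19 windows in all. CCGG, the MspI site, reads the same on both strands. The promoter window of the deposited levels is not stated, and the bases below need not be those measured. Shown are Dnmt3b and Uhrf1, on which the short-fragment results turn, Tet2, which has the most CpGs of the 19 windows, Zfp57, on which the long-fragment results turn, and Dnmt3l, which no library listed. Capitals mark CCGG.
Dnmt3b, chr2:153649199-153649498, + strand: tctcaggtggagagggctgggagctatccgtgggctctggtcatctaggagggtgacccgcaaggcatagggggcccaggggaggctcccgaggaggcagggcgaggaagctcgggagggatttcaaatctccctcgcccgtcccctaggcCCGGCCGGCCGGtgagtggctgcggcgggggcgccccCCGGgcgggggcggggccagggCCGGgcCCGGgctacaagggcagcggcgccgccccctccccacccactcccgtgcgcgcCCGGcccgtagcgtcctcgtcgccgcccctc
Uhrf1, downstream start, chr17:56304063-56304362, + strand: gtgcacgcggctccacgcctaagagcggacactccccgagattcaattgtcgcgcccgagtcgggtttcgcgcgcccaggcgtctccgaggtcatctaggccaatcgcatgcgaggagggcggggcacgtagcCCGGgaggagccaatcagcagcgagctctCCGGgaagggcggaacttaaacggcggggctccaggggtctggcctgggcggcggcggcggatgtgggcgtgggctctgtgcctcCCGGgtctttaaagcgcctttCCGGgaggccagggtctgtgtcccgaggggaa
Tet2, chr3:133544341-133544640, - strand: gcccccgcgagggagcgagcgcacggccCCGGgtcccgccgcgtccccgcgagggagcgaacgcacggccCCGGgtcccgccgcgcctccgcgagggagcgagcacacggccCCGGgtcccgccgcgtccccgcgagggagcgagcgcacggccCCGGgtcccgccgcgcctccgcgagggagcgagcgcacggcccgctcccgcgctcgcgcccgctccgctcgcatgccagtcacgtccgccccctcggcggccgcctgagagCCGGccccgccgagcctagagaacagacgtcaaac
Zfp57, most downstream start, chr17:37003416-37003715, + strand: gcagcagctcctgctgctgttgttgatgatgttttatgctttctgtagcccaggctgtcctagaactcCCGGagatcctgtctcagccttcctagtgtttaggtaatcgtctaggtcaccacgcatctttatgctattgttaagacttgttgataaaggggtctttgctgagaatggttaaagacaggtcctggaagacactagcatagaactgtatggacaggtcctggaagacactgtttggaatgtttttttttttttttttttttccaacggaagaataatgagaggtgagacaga
Dnmt3l, most upstream start, chr10:78042037-78042336, + strand: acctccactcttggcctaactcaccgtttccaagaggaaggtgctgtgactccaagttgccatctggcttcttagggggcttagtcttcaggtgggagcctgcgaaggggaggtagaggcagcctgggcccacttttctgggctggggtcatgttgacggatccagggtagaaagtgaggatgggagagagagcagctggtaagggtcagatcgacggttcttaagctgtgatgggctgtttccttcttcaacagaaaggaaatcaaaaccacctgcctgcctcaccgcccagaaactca

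The Dnmt3b window held 30 CpGs and 7 CCGG sites, 3 of them back to back, and 1 pair of neighbouring sites lay 53 nt apart, within the short size class. The downstream Uhrf1 window held 33 CpGs and 4 sites with 1 pair 85 nt apart, while the upstream Uhrf1 window held 12 CpGs. The Tet2 window held 57 CpGs, and its 5 sites lay 42, 42, 42 and 111 nt apart, all in the short class. Zfp57 was the sparsest of the listed genes: its 3 windows held 6, 9 and 4 CpGs and a single CCGG between them. The 3 Dnmt3l windows held 6, 4 and 3 CpGs and no CCGG. For comparison, the median over 32851 RefSeq windows was 7 CpGs, and 52.8% of windows held at least 1 CCGG.

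Among the remaining genes, Dnmt1 had 2, 12 and 33 CpGs at its 3 starts and CCGG sites at the last start only, with gaps of 89, 15 and 85 nt. Dnmt3a had 46, 47 and 18 CpGs. Uhrf2 had 28 CpGs and 1 site, Mbd4 25 CpGs and 2 sites 55 nt apart, and Tdg 26 CpGs and 2 sites 116 nt apart. No window of the 19 held 2 neighbouring sites more than 120 and up to 220 nt apart, the long class, although 7 of the genes had long-fragment values; 8.52% of all windows did. Of the genes with a window, 55.1% of the 7977 listed in all 6 short-fragment libraries had a gap of 40 to 120 nt in one, against 10.2% of the 768 listed in no short-fragment library but in a long-fragment one.

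**Figure D1:**
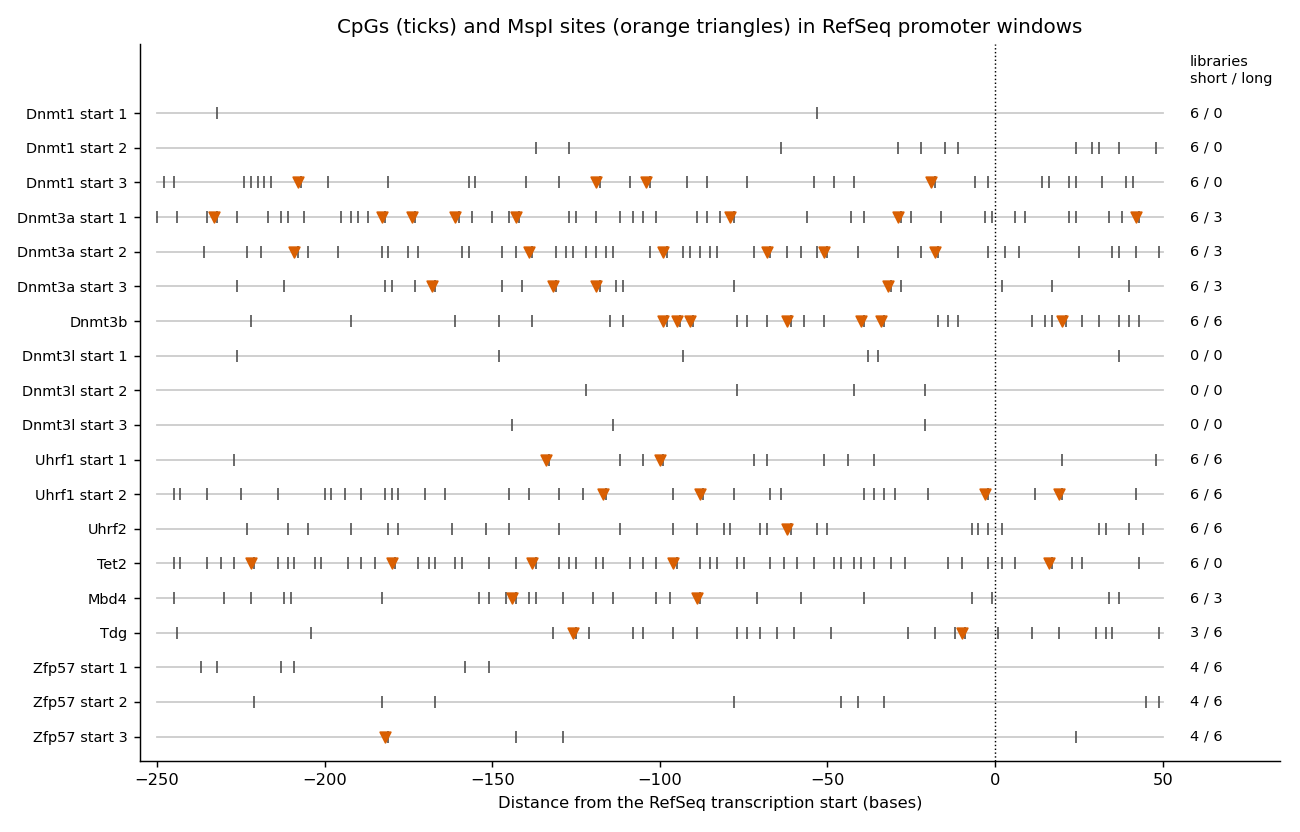
Positions of CpGs (grey ticks) and CCGG sites (orange triangles) in the 19 RefSeq promoter windows of the 10 genes; the x axis is the distance from the transcription start in bases, and the numbers at the right give in how many of 6 short-fragment and 6 long-fragment libraries the gene was listed. Sites are dense at Dnmt3a, Dnmt3b and Tet2, 1 site is seen over the 3 Zfp57 windows, and none at Dnmt3l.

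Which genes were listed differed by fraction. All 6 short-fragment libraries listed Dnmt1, Dnmt3a, Dnmt3b, Uhrf1, Uhrf2, Tet2 and Mbd4, and all 6 long-fragment libraries listed Dnmt3b, Uhrf1, Uhrf2, Tdg and Zfp57. Dnmt1 and Tet2 were in no long-fragment library. Only Dnmt3b, Uhrf1 and Uhrf2 were in all 12 libraries, and Dnmt3l, the catalytically inactive partner of Dnmt3a and Dnmt3b in germ cells, was in none. Of the genes with a window that no library listed, 63.3% had no CCGG in any window, as Dnmt3l did, against 11% of those listed. The promoter rows of a gene (5 for Dnmt3b, 4 for Uhrf1, 2 each for Tdg and Zfp57, and 1 each for the other 5) carried identical values in every library, so a gene's level and its promoters' levels are the same numbers.

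Short-fragment libraries listed 10358 to 10838 genes and long-fragment libraries 7278 to 8108. Read depth is unknown, and no interval for counting error can be attached, at 0% either. Over the 10027 genes in all 6 short-fragment libraries the mean level was 16.3% to 18.4% in induced and 3.81% to 4.39% in control mice. Over the 6127 genes in all 6 long-fragment libraries it was 18.3% to 21.2% in induced and 4.78% to 5.46% in control mice. Control mouse 2 stood apart on the X chromosome, with a median level of 0.065% among short and 0% among long fragments, against 33.2% to 37.0% in the other control libraries and 48.9% to 62.4% in induced ones. None of the 10 genes is X-linked. Methylation does not measure expression, so cell type markers are a description only. Of the 18 colon epithelium genes, 7 of 8 tested among short and 8 of 9 among long fragments had means under 5% in both groups. The exceptions were Ascl2 among short fragments (5.82% in induced, 0.08% in control mice) and Krt18 among long ones (30.2% and 22.8%). No colon epithelium gene passed. Of 14 immune genes 2 were tested, with Lck at mean levels under 1% in both groups and Ikzf1 at 58.9% in induced and 1.80% in control mice (short fraction, limma adjusted p = 0.00504). Of 12 stromal and endothelial genes, 4 of 5 tested rose among short fragments, where 27.6% of all genes did, and 3 of 3 among long fragments, where 23.2% did. The part of cell composition in the results below was not tested.

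Few promoters of the machinery passed the test between induced and control mice: 1 of the 7 genes tested in the short fraction (Dnmt3b) and 1 of the 5 tested in the long fraction (Zfp57) rose, and none fell. A gene was called where the adjusted p of limma, a moderated linear model fitted over all genes listed in all 6 libraries of a fraction, was under 0.05 after Benjamini-Hochberg adjustment. Of all genes tested, 27.6% rose and 0.0798% fell among short fragments, and 23.2% rose and 0.0163% fell among long fragments, so the shares of the machinery, 14.3% and 20%, were no higher than the background. Over promoter rows, 27.4% rose among short and 22.8% among long fragments. The median difference was 1.53 percentage points over the 7 genes and 0.50 points over all 10027, and 0.0567 points over the 5 genes and 0.943 points over all 6127. The groups did not overlap, with the induced mice higher, for 4 of the 7 genes in the short fraction, against 39.5% of all genes, and for 1 of the 5 in the long fraction, against 38.2% of all genes.

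**Figure D2:**
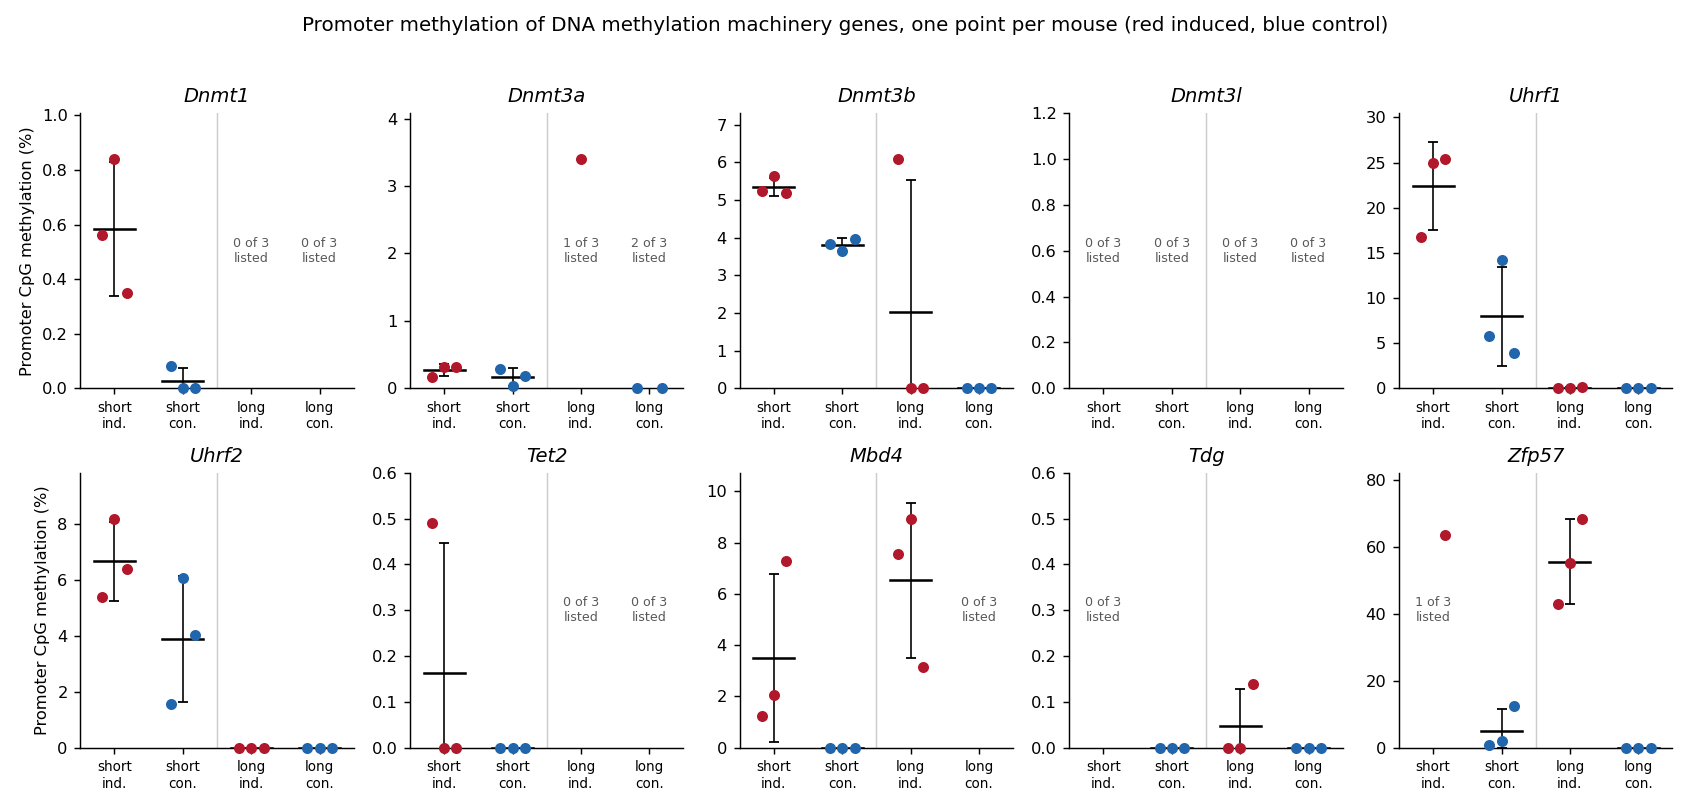
Promoter CpG methylation level in percent (y axis, linear, own scale for each gene) of the 10 genes in induced (red) and control (blue) mice in short-fragment and long-fragment libraries, 1 point per mouse. Lines are means and bars 1 SD, cut at 0, drawn where all 3 mice were listed; grey text counts the mice listed where fewer were. Zfp57 and, in the short fraction, Uhrf1 show the widest gaps between groups.

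Among the writers, Dnmt3b itself had the highest levels at its own promoter in the short fraction. Short-fragment levels were 5.23%, 5.63% and 5.19% in induced mice 1, 2 and 3, against 3.84%, 3.64% and 3.97% in control mice 1, 2 and 3. The groups did not overlap, and the gap between them was wider than the range within either. The mean was 5.35% ± 0.243 in induced and 3.82% ± 0.166 in control mice (SD, n = 3 each), a difference of 1.53 points (95% interval 1.09 to 1.98, limma adjusted p = 0.00286). The rise is small beside those of other genes: its difference stood at the 59.4th percentile of all short-fragment differences. It also passed without control mouse 2, the mouse apart on the X chromosome (adjusted p = 0.016). The call was lost in 3 alternatives: adjusted p was 0.243 with a robust variance that follows the mean level (both changed at once), 0.102 without genes under 1% in all 6 libraries, and 0.558 in 1 limma fit over both fractions.

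Long fragments of Dnmt3b gave another picture. They were at 6.09% in induced mouse 1 and at 0% in induced mice 2 and 3 and in all 3 control mice, so 1 library carries the mean of 2.03% ± 3.52 in induced mice. The difference from control mice (0% in each) was 2.03 points (95% interval -3.13 to 7.19, limma adjusted p = 0.584), and 0 points without induced mouse 1. The difference between the long and the short change did not pass (long minus short 0.497 points, 95% interval -3.86 to 4.85, limma interaction adjusted p = 0.926), but without induced mouse 1 the difference was -1.59 points and passed (adjusted p = 0.00545). The 3 genes whose short-fragment values were closest to those of Dnmt3b over the 6 libraries were Dnali1, Rabgap1l and Scap, with root mean square differences of 0.386, 0.580 and 0.626 points.

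Dnmt1, the maintenance enzyme, was nearly unmethylated in every mouse. Its short-fragment levels were 0.56%, 0.84% and 0.35% in induced mice, against 0.08%, 0% and 0% in control mice. The groups did not overlap, on a scale where the highest mouse stayed under 1%. The difference of 0.557 points (95% interval 0.177 to 0.936) narrowly missed the threshold (limma adjusted p = 0.0505), and the call turned on the setting, with adjusted p between 0.0176 on an arcsine square root scale and 0.160 without control mouse 2. Dnmt3a, the other de novo enzyme, had 0.16%, 0.32% and 0.32% in induced mice and 0.29%, 0.03% and 0.18% in control mice, overlapping groups with a difference of 0.10 points (95% interval -0.158 to 0.358, limma adjusted p = 0.568). Its long fragments were listed in induced mouse 2 at 3.40% and in control mice 1 and 3 at 0%, too few for a test.

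Of the readers of hemimethylated DNA, Uhrf1 had the highest short-fragment means of the 7 tested genes in both groups, though in control mouse 3 it lay just below Uhrf2 and Dnmt3b. Its levels were 16.7%, 24.95% and 25.4% in induced mice 1, 2 and 3, against 5.81%, 14.2% and 3.91% in control mice 1, 2 and 3. The groups did not overlap, but control mouse 2 came close to induced mouse 1. The means were 22.4% ± 4.88 in induced and 7.97% ± 5.47 in control mice (SD, n = 3 each), and the difference of 14.4 points (95% interval 3.77 to 25) did not pass (limma adjusted p = 0.0644). It passed in 5 of 14 alternatives, among them without control mouse 2 (17.5 points, adjusted p = 0.0454) or induced mouse 1 (17.2 points, adjusted p = 0.0485), and in 1 fit over both fractions (adjusted p = 0.0039). Its percentile among all short-fragment differences was 75.

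Long fragments of the same gene were nearly or wholly unmethylated. Uhrf1 was at 0%, 0.07% and 0.10% in induced mice and 0% in all 3 control mice, a difference of 0.0567 points (95% interval -0.0695 to 0.183, limma adjusted p = 0.562). In every mouse of both groups the short fragments of the gene were the more methylated ones. The change itself was 14.3 points smaller in the long than in the short fraction (95% interval of the difference -23.3 to -5.32), which did not pass over the 5309 genes listed in all 12 libraries (limma interaction, adjusted p = 0.0908), where 4.71% of genes did. Without induced mouse 1 that test passed (adjusted p = 0.0414).

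Uhrf2, the relative of Uhrf1, showed the same order of fractions at lower levels. Its short fragments were at 5.39%, 8.20% and 6.41% in induced mice and 1.56%, 6.07% and 4.05% in control mice. The groups overlapped, with control mouse 2 again the highest control, and the difference of 2.77 points (95% interval -1.10 to 6.64) did not pass (limma adjusted p = 0.30). All 6 long-fragment libraries listed Uhrf2 at 0%, as they did 329 other genes. Its interaction with fraction, -2.77 points (95% interval -6.06 to 0.518), did not pass either (limma adjusted p = 0.463).

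**Figure D3:**
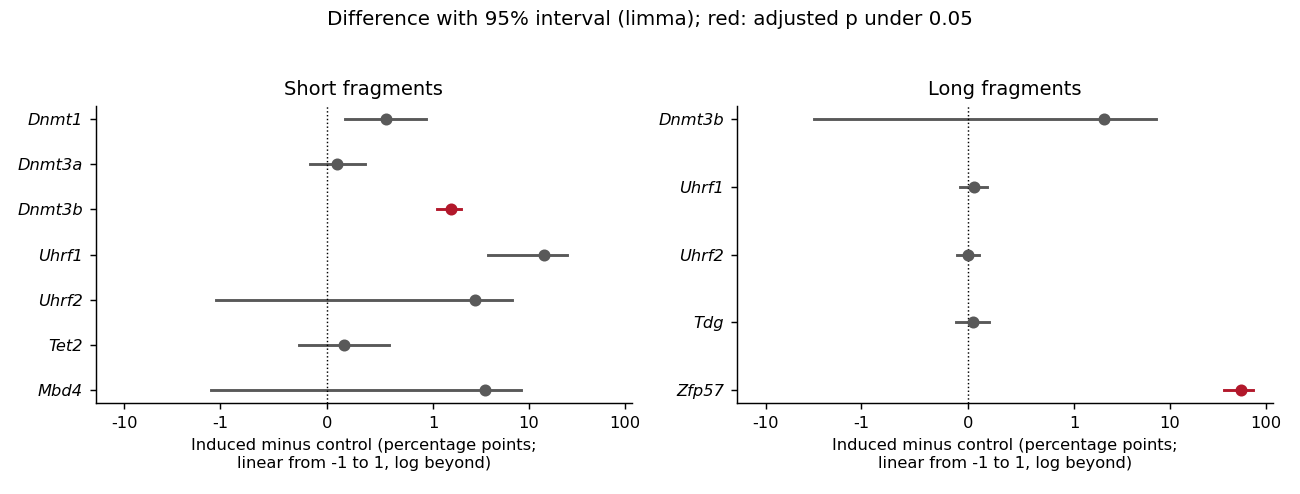
Induced minus control difference in percentage points (x axis, linear from -1 to 1 and logarithmic beyond) for the 7 genes tested among short fragments and the 5 tested among long fragments; points are limma estimates, bars 95% intervals, and red marks an adjusted p under 0.05. Dnmt3b (1.53 points) and Zfp57 (55.5 points) are red, and the intervals of Dnmt1 and Uhrf1 also lie above 0.

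Zfp57, the zinc finger protein of imprint maintenance, had by far the largest change of the list. Long-fragment levels were 43.0%, 55.0% and 68.4% in induced mice 1, 2 and 3, against 0% in each of the 3 control mice. No mouse of either group lay near the other group, although induced mice varied widely among themselves. The induced mean was 55.5% ± 12.7 (SD, n = 3) and the difference 55.5 points (95% interval 36.9 to 74.1, limma adjusted p = 0.00726), at the 88.5th percentile of all long-fragment differences. The call held with any 1 library left out, with adjusted p from 0.00486 to 0.0427. The genes closest to Zfp57 over the 6 long-fragment libraries were Adcy5, Nav1 and Lrrn2, with root mean square differences of 1.84, 2.03 and 2.23 points, induced means of 56.4%, 54.2% and 56.0% and control means of 0.363%, 0.413% and 1.22%.

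Short fragments of Zfp57 were listed in 4 libraries, too few for a test. They were at 63.5% in induced mouse 3, against 0.73%, 2.15% and 12.5% in control mice 1, 2 and 3. In that induced mouse the 2 fractions were close, at 63.5% and 68.4%. Control mice, at 0% in all their long fragments, varied more in the short ones, where mouse 3 was the highest.

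The genes of demethylation and repair stayed low. Tet2, which oxidises methylcytosine, was listed at 0.49%, 0% and 0% in induced mice and 0% in all 3 control mice (0.163 points, 95% interval -0.262 to 0.588, limma adjusted p = 0.570). Only 1 library was above 0. Tdg, the glycosylase acting after Tet enzymes, was at 0%, 0% and 0.14% in the long fragments of induced mice and 0% in those of control mice (limma adjusted p = 0.644). Its short fragments were at 0% in all 3 control mice and were listed in no induced mouse.

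Mbd4, a thymine glycosylase, had signal in every induced library, unlike Tet2 and Tdg. Short fragments were at 1.23%, 2.04% and 7.27% in induced mice, against 0% in all 3 control mice. The groups did not overlap, but induced mouse 3 lay far above the others, and the difference of 3.51 points (95% interval -1.24 to 8.26) did not pass (limma adjusted p = 0.285). It passed in 2 of 13 alternatives: without induced mouse 3 (1.64 points, adjusted p = 0.0285) and on an arcsine square root scale (adjusted p = 0.0396). Long fragments were listed in the 3 induced mice only, at 7.54%, 8.93% and 3.14%, where mouse 3 was the lowest. The neighbouring gene Ift122 carried identical values in every library that listed them, so the 2 genes' promoters cannot be told apart here.

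Listing all of 1 group and none of the other was rare. Tdg was among 40 genes of 11113 (0.36%) listed by all 3 control and no induced short-fragment library, and Mbd4 among 35 of 8748 (0.40%) listed by all 3 induced and no control long-fragment library. The part of depth in these patterns was not tested.

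The order of the induced short-fragment means was Uhrf1 (22.4%), Uhrf2 (6.67%), Dnmt3b (5.35%), Mbd4 (3.51%), Dnmt1 (0.583%), Dnmt3a (0.267%) and Tet2 (0.163%). Uhrf1 lay above the others in every induced mouse. The ranges of Uhrf2, Dnmt3b and Mbd4 overlapped, and so did those of Dnmt1 and Tet2 and of Dnmt3a and Tet2. In control mice the order was Uhrf1 (7.97%), Uhrf2 (3.89%), Dnmt3b (3.82%), Dnmt3a (0.167%) and Dnmt1 (0.0267%), with Mbd4 and Tet2 at 0%, and the ranges of Uhrf1 and Uhrf2, of Uhrf2 and Dnmt3b, and of Dnmt3a and Dnmt1 overlapped. Uhrf1 and Dnmt3b did overlap as well, through control mouse 3.

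**Figure D4:**
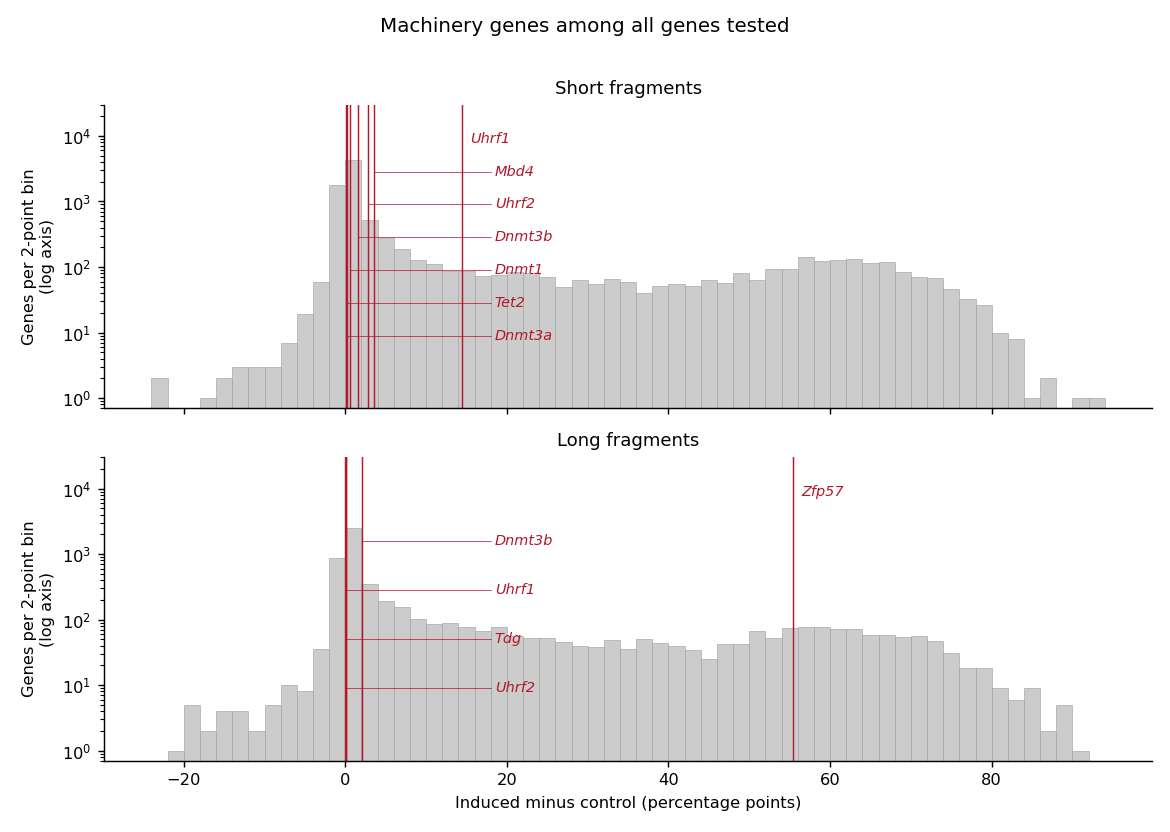
Number of genes (y axis, logarithmic) by induced minus control difference in percentage points (x axis, 2-point bins) for the 10027 short-fragment and 6127 long-fragment genes, with the tested machinery genes as red lines. All but Uhrf1 (14.4 points) and Zfp57 (55.5 points) lie within 4 points of 0, where most genes lie.

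The wider pathway was examined through 59 further genes in 5 roles. In the short fraction 38 were tested, 4 rose (10.5%, against 27.6% of all genes) and none fell, with a median difference of 0.407 points, against 0.50 over all genes. In the long fraction 24 were tested, 2 rose (8.33%, against 23.2%) and none fell, with a median of 0.228 points, against 0.943. Both induced and control means were under 5% for 25 of the 38 and 15 of the 24.

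Of the partners and regulators of the writers, 3 of 9 tested rose in the short fraction (33.3%, against 27.6% of all genes) and 1 of 7 in the long fraction (14.3%, against 23.2%), shares near those of all genes. Nsd1, a histone H3 lysine 36 methyltransferase, was at 65.8%, 70.9% and 79.6% in the short fragments of induced mice and 20.2%, 24.1% and 21.4% in those of control mice (50.2 points, limma adjusted p = 0.00109). Its long fragments were at 92.6%, 88.6% and 100% in induced and 36.1%, 29.2% and 33.1% in control mice (60.9 points, limma adjusted p = 0.00116), so it rose in both fractions, and control mice were already partly methylated. Kdm2a, a demethylase that binds unmethylated CpGs and is named Fbxl11 in the deposited tables, differed by fraction. Its short fragments were at 28.1%, 26.5% and 28.6% in induced and 3.85%, 2% and 3.54% in control mice (24.6 points, limma adjusted p = 0.000172), whereas no long-fragment library exceeded 0.22%. The 2 changes differed (limma interaction, -24.6 points, adjusted p = 1.51e-06). Ehmt2, a histone H3 lysine 9 methyltransferase, rose by 0.920 points in the short fraction, to 1.63% ± 0.309 in induced, against 0.713% ± 0.0924 in control mice (SD, n = 3 each; limma adjusted p = 0.0212). That call was lost in 8 of 14 alternatives, with adjusted p up to 0.873, and its long fragments, at 9.84% in induced and 7.60% in control mice, did not pass (adjusted p = 0.586).

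Among erasers and demethylation factors 1 of 5 rose among short (20%, against 27.6% of all genes) and 1 of 4 among long fragments (25%, against 23.2%), both of the Gadd45 family of stress-response genes. Gadd45a was at 12.4%, 14.5% and 13.6% in the short fragments of induced mice, against 0%, 0% and 0.03% in control mice (13.5 points, limma adjusted p = 0.000292). Its long fragments stayed at 0.52% or less, and the changes differed between fractions (limma interaction, -13.3 points, adjusted p = 8.93e-06). Gadd45b was at 5.59%, 8.80% and 7.12% in the long fragments of induced mice, against 0%, 0% and 0.22% in control mice (7.10 points, limma adjusted p = 0.00711), while its short fragments, at 2.75%, 8.27% and 4.34% in induced and 0.02%, 1.81% and 2.13% in control mice, did not pass (3.8 points, adjusted p = 0.214). The short-fragment groups of Gadd45b did not overlap. Its changes did not differ between fractions past the threshold (limma interaction, 3.30 points, 95% interval -0.853 to 7.45, adjusted p = 0.500). Gadd45g had means under 1% in both groups of either fraction. Tet1 and Tet3, the other Tet genes, were listed in no library.

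No reader, base excision repair or methyl donor gene passed in either fraction, where 27.6% (short) and 23.2% (long) of all genes rose. Of the 3 roles, 8, 7 and 9 genes were tested in the short and 4, 3 and 6 in the long fraction. The largest difference was at Neil2, a DNA glycosylase, with 21.8%, 66.8% and 60.5% in the short fragments of induced mice and 8.07%, 12.8% and 10.4% in control mice (39.2 points, limma adjusted p = 0.115); the groups did not overlap, and induced mouse 1 was far below the other two. Xrcc1, a scaffold of base excision repair, had 13.1%, 19.3% and 13.7% in induced and 2.77%, 9.13% and 0.81% in control mice (11.1 points, limma adjusted p = 0.0598). Among readers, the X-linked gene Zbtb33 was at 40.7%, 34.6% and 34.9% in the short fragments of induced mice and 28.2%, 3.47% and 34.6% in those of control mice (14.6 points, limma adjusted p = 0.390). Control mouse 2, which stood apart on the X chromosome, was the lowest. In the long fraction the Zbtb33 groups overlapped, with means of 41.2% in induced and 16.8% in control mice (24.4 points, limma adjusted p = 0.373). The methyl donor gene Gnmt, glycine N-methyltransferase, was at 10.4% ± 2.18 in induced and 2.78% ± 4.81 in control mice in the short fraction, and at 27.2% ± 3.73 in induced and 18.8% ± 2.03 in control mice in the long fraction (SD, n = 3 each; limma adjusted p = 0.151 and 0.0745). Among the largest differences of each role, 3 had a lower mean in induced mice, none past the threshold. The means were 0.31% against 1.52% at Ahcyl1 in the short fraction, and 0.0333% against 1.92% at Mbd3 and 8.42% against 9.68% at Ung in the long fraction. At Ahcyl1 control mouse 3 alone, at 4.55%, carried the control mean, and at Mbd3 control mouse 2 alone, at 5.77%. The other control mice were at 0% at both genes. Mtr, methionine synthase, was at 3.66% in induced and 0% in control mice in the long fraction (limma adjusted p = 0.285), and Apex1, the abasic site nuclease, at 7.76% and 6.58% (adjusted p = 0.239).

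**Figure D5:**
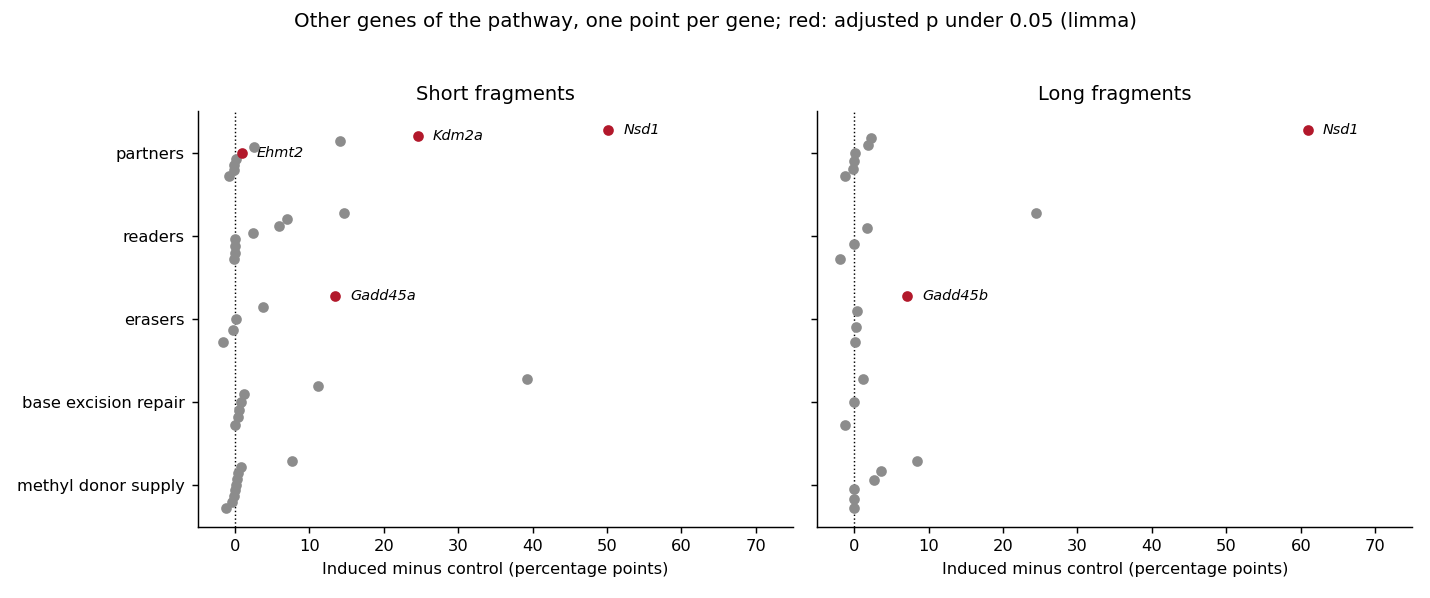
Induced minus control difference in percentage points (x axis) for the tested genes of the 5 roles (rows; vertical spread within a row only separates points), 1 point per gene, in short and long fragments. The genes past the threshold are red and named: Ehmt2, Kdm2a, Nsd1 and Gadd45a in the short fraction and Nsd1 and Gadd45b in the long fraction.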

How the data were processed

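Reduced representation bisulfite libraries were made from colon epithelial cells of 3 induced and 3 control mice, 2 size fractions each. Per the labels' protocols, DNA was cut with MspI, sized on a gel, ligated to methylated adapters, bisulfite-treated, amplified and sequenced on an Illumina Genome Analyzer. Per the file headers, the authors' deposited tables hold methylation as a fraction (0 to 1), averaged over the CpGs of a gene or RefSeq promoter. How reads were aligned, filtered and assigned to promoters, and on which build, is not given in the sources. The deposited fractions were multiplied by 100. Depth is unknown and read counts cannot be recovered, so precision rests on the 3 mice of a group, which are separate animals. Bisulfite levels also count hydroxymethylcytosine and unconverted cytosine. The gene level equalled the mean of its promoters within 0.005 points in each library. At most 2.53% of values above 0 were shared by 2 libraries of a fraction, and each library was treated as its own sample.

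Genes listed in all 6 libraries of a fraction were fitted with limma 3.58.1 (lmFit, eBayes, levels in percent) in R 4.3.3, with Benjamini-Hochberg adjustment over all of them and a threshold of 0.05. Promoter rows were fitted likewise and gave the same calls for the 10 genes. The difference between fractions was tested in a single limma model of the 5309 genes that every library listed, where the 2 libraries of a mouse were blocked (duplicateCorrelation, 0.0674). The gene fits within each fraction were tested on simulated levels. List genes were matched by symbol or NCBI Gene ID, and 99.82% of IDs were found in a RefSeq table of GRCm38.p6, used for names and chromosomes. Python 3.11.15, numpy 2.4.6, pandas 2.3.3 and matplotlib 3.10.9 served for summaries and figures.

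The genes and lists were chosen with earlier results of these data known. All 10 genes are named, and for each called gene among them the 3 genes of nearest values are given. Of the 59 further pathway genes, those past the threshold are named with others among the 2 largest differences per role. A result that this rule would name is not reported here.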

Additional observations from a re-analysis of the deposited data

Results flagged for a closer look

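Zfp57 was listed in too few short-fragment libraries for a test, yet its level in induced mouse 3, 63.52%, lay above all 3 control mice (0.73%, 2.15% and 12.5%). Dnmt3a long fragments, likewise untested, were at 3.40% in induced mouse 2 and at 0% in the 2 control mice that listed them. The change at Kdm2a differed between fractions by a test of the difference itself: it was -24.64 points in the long relative to the short fraction (limma interaction, adjusted p = 1.51e-06). Gadd45a was picked out in the same way, at -13.34 points (adjusted p = 8.93e-06). Groups of 3 mice are too small for the check of single outlying samples.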

How the results depend on the processing

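Among the 10 genes, no short- or long-fragment difference took the opposite sign in any alternative. The differences of Dnmt3b and Tdg (long fraction) and of Tet2 (short fraction) fell to 0 with 1 induced library left out. That of Uhrf2 in the long fraction was 0 in the main fit. The count of called genes among the 7 tested short-fragment ones was 3 on the arcsine square root scale and 2 on the log2 ratio scale and with trend and robust variance together, against 1, and 1 to 3 with 1 library left out. The genes called also changed. With trend and robust variance they were Dnmt1 and Uhrf1, without Dnmt3b. The count stayed at 1 without genes under 1% in all 6 libraries and in 1 fit over both fractions, but there Uhrf1 was called and Dnmt3b was not. Both settings test fewer of the 7 genes. The filter leaves out Dnmt1, Dnmt3a and Tet2, and the fit over both fractions holds only Dnmt3b, Uhrf1 and Uhrf2. In the long fraction the count of called genes was 0 with the replicate block, where Zfp57 had adjusted p = 0.0587 (and Gadd45b, also lost, 0.0585). It was also 0 in 1 fit over both fractions, which leaves Zfp57 out because Zfp57 is not in all 12 libraries. Deviations of same-numbered induced and control mice correlated at -0.0498 to 0.0736 across genes. That gives no sign that mouse numbers pair the groups, but with 3 mice per group it cannot exclude pairing. With the replicate block 652 long-fragment genes and 713 promoters passed, against 1422 and 1593; 1 fit over both fractions called 1575 short-fragment genes of 5309, against 2773 of 10027. With 1 library left out, the counts were 2229 to 3061 short-fragment genes, 904 to 1560 long-fragment genes, 2492 to 3414 short-fragment promoters and 1015 to 1757 long-fragment promoters, and with 1 mouse left out 131 to 458 genes had a fraction-dependent change, against 250. The Dnmt3b contrast between fractions turned from 0.497 to -1.593 points without induced mouse 1, and with 1 mouse left out ranged up to 1.652 points; its long-fragment signal sits in that mouse. Over the alternatives for the 10 genes and the called pathway genes within a fraction, 214 kept direction and side of the threshold, 12 gained it, 13 lost it and 0 reversed. A difference of 0, in the main fit or in the alternative, was counted as keeping its direction. Unknown depth limits every level near 0.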
